A study of Homo sapiens with 9 samples.

Results

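The genes described here are the nuclear genes for proteins of the mitochondrial ribosome. They were chosen by name, as all gene probes of the array designed against an NM_ RefSeq transcript of a gene whose symbol starts with MRPL or MRPS and a digit. The array held 89 such probes for 77 genes, of 42405 gene probes for 35010 genes and unnamed features in all. All 77 genes were among the 21813 genes and unnamed features that passed the filter on low signals and were tested. Of these 21813, 13979 had a gene symbol. Counts and shares over all genes below include the unnamed features. RNA came from A2780, a cell line long kept in culture that derives from a human ovarian carcinoma, left untreated or cultured for 24 h with DIG-MSK at either 8 nM or 80 nM, with 3 independent cultures and 3 single-colour arrays per group. DIG-MSK is an analogue of mithramycin, a compound that lodges in the minor groove where DNA is rich in C and G, and the study asked which transcripts changed at the lower and at the higher concentration. A level is the log2 intensity of a probe minus the log2 of the 75th percentile of its array, and a difference is a log2 difference between group means of such levels.

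Mitochondria carry their own genome, which encodes core subunits of the respiratory chain, and they translate it on a ribosome of their own. The RNAs of that ribosome are made in mitochondria, but its proteins are encoded in the nucleus, made on cytosolic ribosomes and imported. Some of them descend from bacterial ribosomal proteins, such as the homologues of S12 in the decoding centre or of L2 near the site of peptide bond formation, while others were added during the evolution of mitochondria and have no bacterial counterpart.

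The signal of these genes was strong. Of the 89 probes, 88 were well above background on all 9 arrays, and the remaining probe, the weaker of a pair for MRPS18C, failed only on replicate 2 at 8 nM. The 75th percentile of the intensity lay between 825.9 and 1166 on the 9 arrays, and no spot of a gene was saturated. Correlations across genes lay between 0.989 and 0.9956 within groups, between 0.9821 and 0.9905 for 8 nM with untreated arrays, and between 0.9426 and 0.9498 for 80 nM with untreated arrays. The epithelial markers KRT8, KRT18, KRT19 and EPCAM were well above background on all 9 arrays and CDH1 on 0; of the ovarian carcinoma markers, ESR1 and FOLR1 were detected on 9, PAX8 on 3, and WT1 and MUC16 on 0. The leukocyte markers PTPRC and CD14 and the endothelial marker CDH5 were also well above background on 9 arrays, CD3E on 3, and PECAM1 and VWF on 0. EPCAM itself differed from untreated cells by 0.90 at 8 nM (adjusted p = 0.035) and by -0.90 at 80 nM (adjusted p = 0.0091). The untreated and 8 nM arrays shared slide 1, and the 80 nM arrays lay on slide 2, scanned at another time, so that a response to 80 nM and a shift from slide to slide cannot be told apart. The number of arrays limits the precision of every value.

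Few mitochondrial ribosomal protein genes were called at either concentration. The study called a gene up-regulated from 1.5-fold and down-regulated from 0.67-fold, given a p under 0.05, which was taken here as the unadjusted p. At 8 nM, 0 of the 77 genes were up-regulated and 0 down-regulated, where this rule called 7.07% of all genes tested (4.23% up and 2.84% down; 5.09% with an adjusted p in its place). In limma's test, 16 of the 77 had an unadjusted p under 0.05 at 8 nM, against 6693 of the 21813 genes tested. At 80 nM, 2 genes were up-regulated, MRPS30 and MRPL49, and 6 were down-regulated, MRPS17, MRPL14, MRPS25, MRPS9, MRPL53 and MRPS31. These 8 genes are 10.4% of the members, against 35% of all genes tested (18.9% up and 16.1% down), and against 31.1% of the 18829 genes that were well above background on all 9 arrays. Against 8 nM, 80 nM gave 2 up-regulated members, MRPS30 and MRPL2, and 5 down-regulated ones, MRPS17, MRPL14, MRPS25, MRPS9 and MRPL53, which is 9.09%, against 33.6% of all genes tested (19.6% up and 14% down; 32.8% with an adjusted p). In these bulk RNA samples, fewer cells with a transcript and less of it per cell cannot be told apart.

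**Figure D1:**
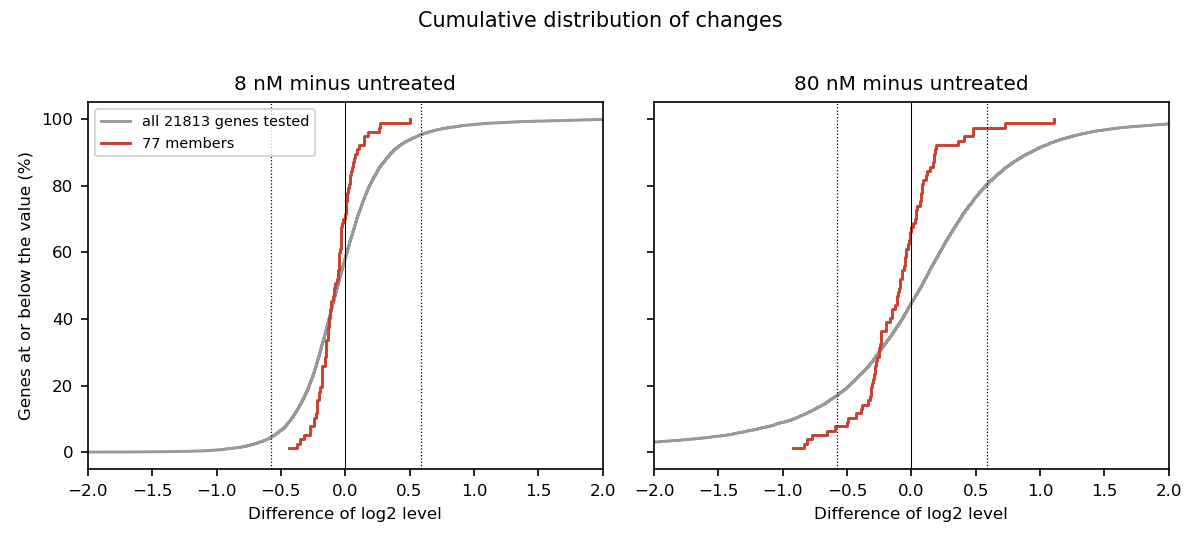
Cumulative share of genes (%) against the difference of log2 level between 8 nM and untreated (left) and between 80 nM and untreated (right), for all 21813 genes tested (grey) and for the 77 mitochondrial ribosomal protein genes (red); dotted lines mark 1.5-fold and 0.67-fold. The red curve is steeper on both sides: 68 members lay within 0.25 of no change at 8 nM and 48 at 80 nM.

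The spread of the changes was narrow. At 8 nM the differences ran from -0.44 to 0.50 with a median of -0.08, next to a median of -0.06 over all genes tested, and 68 members (88.3%) lay within 0.25 of no change, compared with 61.2% of all genes. At 80 nM they ran from -0.92 to 1.11 with a median of -0.09, while the median of all genes was 0.08, and 48 members (62.3%) lay within 0.25 of no change, compared with 31.9% of all genes. The estimate was below 0 for 55 members at 8 nM and for 52 at 80 nM, against 12704 and 9753 of the 21813 genes tested. With an adjusted p under 0.05 and no limit on size, 30 members passed at 80 nM, 7 higher and 23 lower, which is 39% of the members against 58.9% of all genes (33.5% higher and 25.4% lower). The 80 nM arrays lay wholly above the untreated ones for 13 members and wholly below for 35, where all genes tested gave 40.6% and 31.4%. Between 80 nM and 8 nM, 31 members (40.3%) had an adjusted p under 0.05, 13 higher and 18 lower, against 57.6% of all genes (34.9% and 22.7%), and the arrays lay apart for 18 upward and 26 downward, against 39.5% and 25.3%. The counts depended on the scaling of the arrays. Scaled to the 10 spike-in probes, the median of all genes at 80 nM moved to -0.20 and that of the members to -0.37, and 1 member was then called up and 17 down, against 36.3% of all genes called in that scaling. Of all genes called at 80 nM, 3516 of 7642 were lower with the percentile and 72.1% with the spike-in probes.

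MRPS30, MRPL49, MRPS17, MRPL14, MRPS25, MRPS9, MRPL53 and MRPS31 are the members called at 80 nM against untreated cells, and the DNA just upstream of 6 of them is shown because DIG-MSK binds C/G-rich DNA. The sequences are from RefSeq (GRCh38.p14), in the direction of transcription, and each runs up to the base before the listed start of the gene, over at most 250 bases and only as far as no other annotated gene reaches. Capitals mark letters searched on both strands: the GC box GGGCGG, bound by SP1 and related factors, the ETS motif CCGGAAG, bound by GABP, the NRF1 core TGCGCA, the E-box CACGTG, and the YY1 motif AAGATGG. None of these motifs contains another. The whole windows of MRPL14 and MRPS9 lie within TMEM63B and MRPS9-AS2 and are not shown. The printed stretches are MRPS30, chr5:44808794-44808946, plus strand, 49.7% GC; MRPL49, chr11:65122135-65122182, plus strand, 64.6% GC; MRPS17, chr7:55951627-55951876, plus strand, 56% GC; MRPS25, chr3:15065316-15065565, minus strand, 54.4% GC; MRPL53, chr2:74472681-74472831, minus strand, 63.6% GC; and MRPS31, chr13:40771191-40771440, minus strand, 68.8% GC.
MRPS30: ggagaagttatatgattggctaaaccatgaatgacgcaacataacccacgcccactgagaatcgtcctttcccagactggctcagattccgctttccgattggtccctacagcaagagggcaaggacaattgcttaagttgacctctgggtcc
MRPL49: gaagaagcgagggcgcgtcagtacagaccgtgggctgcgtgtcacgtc
MRPS17: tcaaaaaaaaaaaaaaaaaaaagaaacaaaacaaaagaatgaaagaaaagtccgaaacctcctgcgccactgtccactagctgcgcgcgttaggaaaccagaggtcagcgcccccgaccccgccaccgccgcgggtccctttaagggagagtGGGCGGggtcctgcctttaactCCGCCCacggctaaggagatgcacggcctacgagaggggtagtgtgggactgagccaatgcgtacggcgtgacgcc
MRPS25: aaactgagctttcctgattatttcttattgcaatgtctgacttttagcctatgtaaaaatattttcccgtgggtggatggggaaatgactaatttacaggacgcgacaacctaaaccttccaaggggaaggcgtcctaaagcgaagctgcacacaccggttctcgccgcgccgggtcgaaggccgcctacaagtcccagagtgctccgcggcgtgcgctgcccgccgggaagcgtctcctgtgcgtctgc
MRPL53: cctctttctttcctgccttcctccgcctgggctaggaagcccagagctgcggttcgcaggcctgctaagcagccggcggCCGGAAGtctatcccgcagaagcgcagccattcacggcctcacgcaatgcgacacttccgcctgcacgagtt
MRPS31: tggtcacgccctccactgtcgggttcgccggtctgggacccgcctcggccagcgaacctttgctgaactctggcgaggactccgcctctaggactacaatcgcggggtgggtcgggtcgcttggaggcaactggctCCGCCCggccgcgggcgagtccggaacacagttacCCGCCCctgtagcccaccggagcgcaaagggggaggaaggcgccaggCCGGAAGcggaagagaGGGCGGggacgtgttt
The MRPS17 stretch held 2 GC boxes, that of MRPS31 held 3 GC boxes and 1 ETS motif, and that of MRPL53 held 1 ETS motif. None of the 5 motifs was found in the stretches printed for MRPS30, MRPL49 and MRPS25. The windows of the promoter counts below run from 250 bases before the start to 50 from it on, uncut at other genes. There MRPS30 held 1 YY1 motif, and MRPL49 held 1 GC box, 1 E-box and 1 YY1 motif. MRPL53 held 1 GC box and 2 ETS motifs there, and MRPS25 again held none. A match is a run of letters and was not tested as a binding site.

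MRPS30 (NM_016640) rose most. Its protein carries the name of the small subunit but sits in the large subunit, where it has no bacterial counterpart. Its levels were 0.87, 1.05 and 0.98 on the untreated arrays, 1.16, 0.86 and 1.30 at 8 nM, and 2.12, 2.04 and 2.05 at 80 nM. All 3 arrays at 80 nM were above the other 6, whereas the 8 nM and untreated arrays overlapped. The difference between 80 nM and untreated was 1.11 (SE 0.114, 95% interval 0.85 to 1.37, adjusted p = 7.9e-05), a 2.16-fold increase, and that between 80 nM and 8 nM was 0.97 (adjusted p = 0.00019; 0.60 with spike-in scaling, adjusted p = 0.12). The difference at 8 nM was 0.14 (adjusted p = 0.42).

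MRPL49 (NM_004927), a large subunit protein specific to mitochondria, rose at both concentrations. It had levels of 2.74, 2.78 and 2.72 in untreated cells, 2.98, 2.98 and 3.06 at 8 nM, and 3.50, 3.48 and 3.45 at 80 nM. The 3 groups did not overlap. The difference was 0.26 at 8 nM (SE 0.0615, adjusted p = 0.027), which is 1.2-fold and below the limit of the study's rule, and 0.73 at 80 nM (SE 0.0615, adjusted p = 2.5e-05), which is 1.66-fold. With scaling to spike-in probes the 80 nM value was 0.45 (adjusted p = 0.17), and the call was lost. The change at 8 nM did not pass in 13 of 18 alternative settings.

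MRPL2 (NM_015950), the homologue of bacterial L2, had estimates of opposite sign at the lower and the higher concentration. Levels of -0.06, 0.08 and 0.00 in untreated cells compared with -0.33, -0.12 and -0.36 at 8 nM and with 0.43, 0.38 and 0.44 at 80 nM. The 8 nM arrays were all below the untreated ones, and the 80 nM arrays all above them. Only the difference between 80 nM and 8 nM was called, at 0.68 (SE 0.0828, adjusted p = 0.00021) or 1.61-fold. Against untreated cells the differences were -0.27 at the lower concentration, with an adjusted p of 0.064, and 0.41 at the higher one, with 0.0031. With spike-in scaling the call was lost, at 0.32 between 80 nM and 8 nM (adjusted p = 0.28), and the difference of 80 nM from untreated cells was 0.13 (adjusted p = 0.69).

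Of the 6 genes that fell, 4 encode proteins of the small subunit. MRPS17 (NM_015969), the homologue of bacterial S17, had levels of 3.61, 3.51 and 3.34 in untreated cells, 3.15, 3.56 and 3.09 at 8 nM, and 2.53, 2.57 and 2.60 at 80 nM. The 80 nM arrays were the 3 lowest, and replicate 2 at 8 nM stood among the untreated arrays, above the other two of its group. The difference was -0.92 at 80 nM (SE 0.131, 95% interval -1.22 to -0.62, adjusted p = 0.00047), a 0.529-fold level, and -0.22 at 8 nM (adjusted p = 0.29). MRPS9 (NM_182640), the homologue of bacterial S9, had levels of 3.05, 2.93 and 2.96, then 2.87, 3.16 and 2.79, and then 2.23, 2.17 and 2.24 in the same order of groups. Its 80 nM arrays were again the 3 lowest, and its 8 nM arrays spanned the untreated ones. The difference was -0.77 (SE 0.101, adjusted p = 0.00031), and at 8 nM it was -0.04 (adjusted p = 0.83).

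MRPS25 (NM_022497) and MRPS31 (NM_005830) encode small subunit proteins specific to mitochondria. The levels of MRPS25 were 0.33, 0.23 and 0.32 in untreated cells, 0.31, 0.00 and 0.02 at 8 nM, and -0.58, -0.48 and -0.51 at 80 nM. Those at 80 nM lay apart from the rest, and 2 of the 3 arrays at 8 nM lay below the untreated range. The difference was -0.81 at 80 nM (SE 0.0947, adjusted p = 0.00016) and -0.18 at 8 nM (adjusted p = 0.23). MRPS31 had levels of 2.37, 2.11 and 2.23 untreated, 2.12, 2.30 and 2.15 at 8 nM, and 1.61, 1.68 and 1.64 at 80 nM. Its untreated and 8 nM arrays overlapped, and those at 80 nM were lower. The difference of -0.59 (SE 0.0869, adjusted p = 0.00056), or 0.663-fold, stood at the edge of the study's rule, and the call was lost without untreated replicate 1, without replicate 1 at 80 nM and with normexp background correction.

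MRPL14 and MRPL53 encode large subunit proteins. MRPL14 (NM_032111), the homologue of bacterial L14 at the interface of the subunits, had levels of 2.79, 2.53 and 2.52 in untreated cells, 2.36, 2.64 and 2.25 at 8 nM, and 1.69, 1.80 and 1.83 at 80 nM. Replicate 2 at 8 nM again lay within the untreated range, and the 80 nM arrays were the 3 lowest. The difference was -0.84 at 80 nM (SE 0.119, adjusted p = 0.00047) and -0.19 at 8 nM (adjusted p = 0.3). MRPL53 (NM_053050), which has no bacterial counterpart, had levels of 4.22, 4.08 and 4.02, then 4.16, 4.24 and 3.98, and then 3.46, 3.44 and 3.46. All 3 at 80 nM lay together below the others, with a difference of -0.65 (SE 0.0865, adjusted p = 0.00032), and at 8 nM the difference was 0.02 (adjusted p = 0.88). The second probe of MRPL53 gave -0.28 at 80 nM (adjusted p = 0.026), and the call was lost with the mean of both probes.

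**Figure D2:**
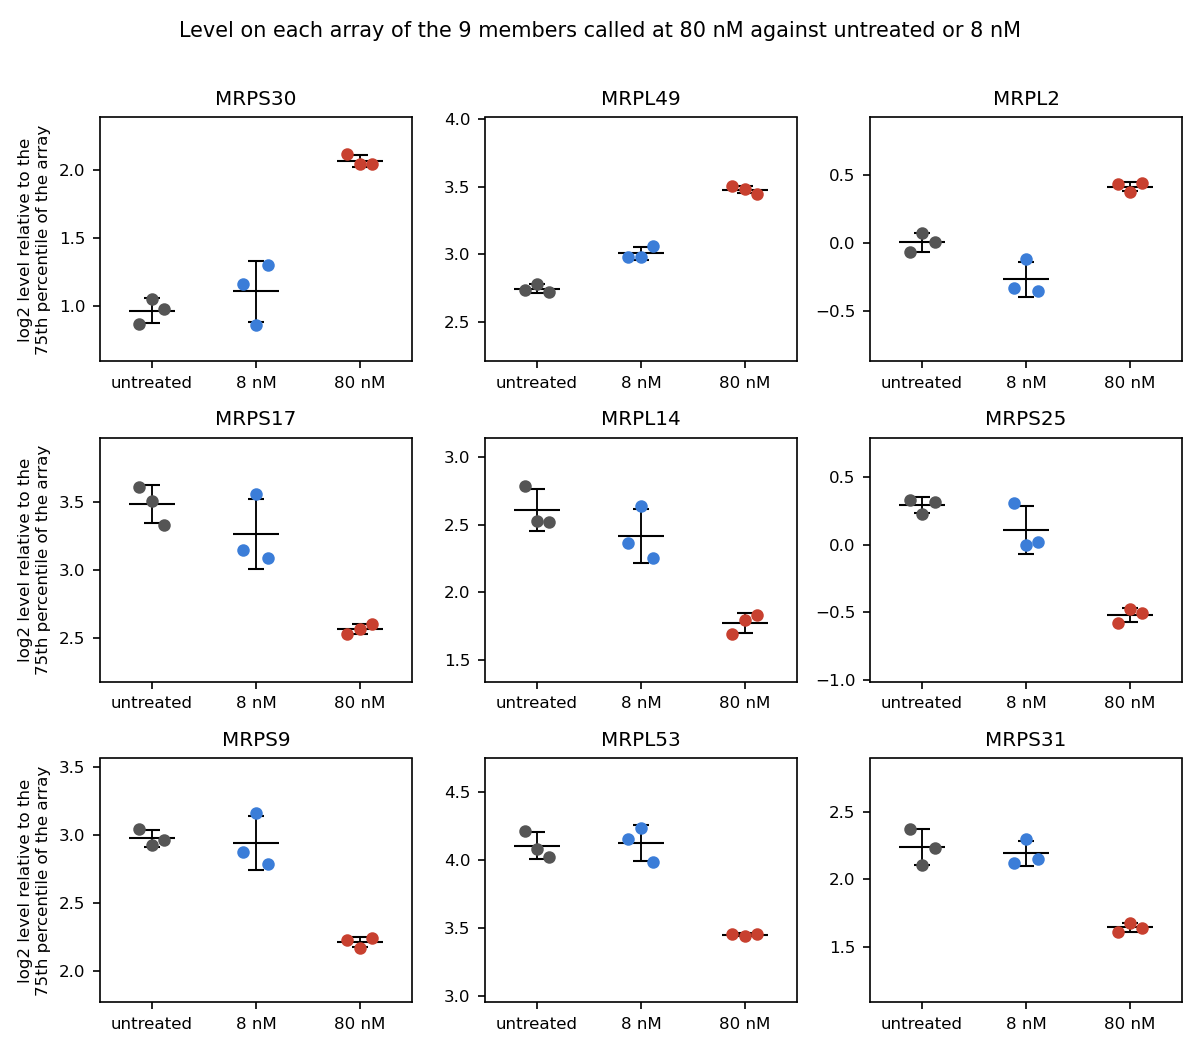
Log2 level relative to the 75th percentile of the array (vertical axis, same span of 1.8 in each panel) on each array for the 9 members called at 80 nM against untreated or against 8 nM; points are arrays, horizontal lines are group means and error bars SD (n = 3). For MRPS30 and MRPL49 the 80 nM arrays lie above all others, for the 6 genes that fell they lie below all others, and MRPL2 is lower at 8 nM and higher at 80 nM.

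At 80 nM, calls for MRPS30, MRPS17, MRPL14, MRPS25 and MRPS9 were kept in all 18 alternative settings. Below the 1.5-fold limit, MRPL18, a homologue of bacterial L18, was higher by 0.48 (adjusted p = 0.00091), MRPL42 by 0.48 (adjusted p = 0.0022) and MRPS23 by 0.37 (adjusted p = 0.0022). On the other side, MRPL28, a homologue of bacterial L28, differed by -0.50 (adjusted p = 0.0063) and MRPS2, a homologue of bacterial S2, by -0.49 (adjusted p = 0.00092). For none of these 5 genes did the 80 nM and untreated arrays overlap.

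At 8 nM, 8 members had an adjusted p under 0.05, which is 10.4% against 13.6% of all genes tested (7.9% higher and 5.74% lower). The 8 nM arrays lay wholly above the untreated ones for 4 members and wholly below for 14, against 15.7% and 18.4% of all genes. The 3 that were higher are MRPL39, MRPL10 and MRPL49, and the 5 that were lower are MRPL12, MRPS34, MRPL21, MRPL17 and MRPS12. MRPL39, a large subunit protein specific to mitochondria, had levels of 2.39, 2.14 and 2.29 in untreated cells, 2.72, 2.81 and 2.80 at 8 nM, and 2.28, 2.36 and 2.33 at 80 nM. Its 8 nM arrays stood above all others, and the untreated and 80 nM arrays overlapped. The difference was 0.50 at 8 nM (SE 0.0792, adjusted p = 0.0057) or 1.41-fold, 0.05 at 80 nM (adjusted p = 0.65), and -0.46 between 80 nM and 8 nM (adjusted p = 0.0015). MRPL10, the homologue of L10 at the base of the stalk of the bacterial large subunit, was higher by 0.27 at 8 nM, where its adjusted p was 0.042, and differed by -0.07 at 80 nM (adjusted p = 0.4). MRPS34 and MRPL17 went the other way at 8 nM, with differences of -0.38 (adjusted p = 0.016) and -0.32 (adjusted p = 0.023), and at 80 nM they differed from untreated cells by -0.11 and 0.09. MRPS12, the homologue of S12, differed by -0.28 at 8 nM (adjusted p = 0.046) and by 0.04 at the higher concentration. MRPL21, a homologue of L21, was lower at both, with -0.35 (adjusted p = 0.042) and -0.32 (adjusted p = 0.018).

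These small changes at 8 nM varied with the arrays included. The median deviation of the 77 members from the untreated mean was 0.05, 0.01 and -0.03 on the untreated arrays and -0.12, 0.05 and -0.16 on the 8 nM arrays, so that replicate 2 lay above the other two. The same array had the highest median deviation of the cytosolic ribosomal protein genes (0.25), and the fewest probes well above background (24800). Without it, 21 members passed in place of 8. When each other array was left out, 2 to 4 passed, and 1 passed when only the untreated and 8 nM arrays, which share a slide, were fitted. At 80 nM the deviations were -0.12, -0.07 and -0.05.

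**Figure D3:**
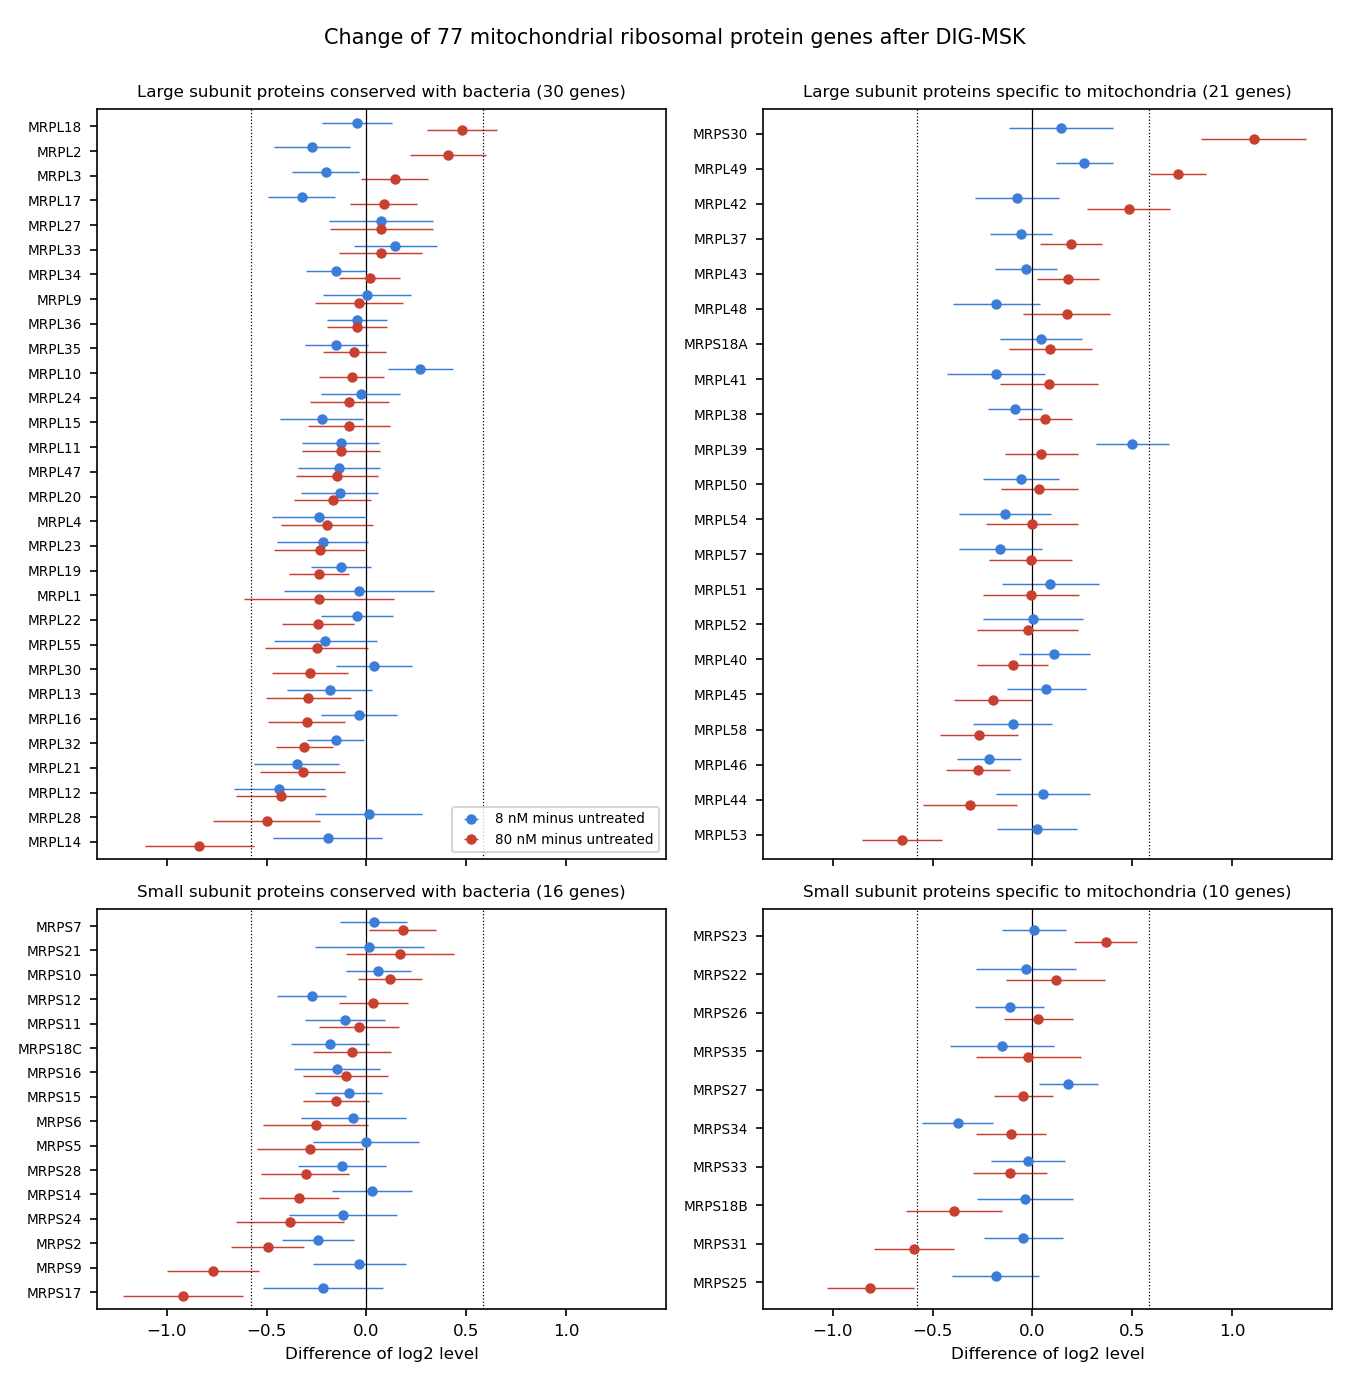
Difference of log2 level between 8 nM and untreated (blue) and between 80 nM and untreated (red) for each of the 77 members, in 4 panels by class; bars are 95% intervals from limma (n = 3 arrays per group) and dotted lines mark 1.5-fold and 0.67-fold. Only MRPS30 and MRPL49 lie beyond the upper line at 80 nM, 6 genes lie beyond the lower line, and no blue point lies beyond either.

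MRPL12, MRPL58 and MRPS18A have roles or places that set them apart. MRPL12, the homologue of the L7/L12 stalk protein, also binds the mitochondrial RNA polymerase as a free protein. It had levels of 3.70, 3.56 and 3.47 in untreated cells, 3.08, 3.30 and 3.05 at 8 nM, and 3.06, 3.14 and 3.25 at 80 nM. Both treated groups lay below the untreated arrays and overlapped each other. The differences were -0.44 at 8 nM (SE 0.0989, adjusted p = 0.024) and -0.43 at 80 nM (SE 0.0989, adjusted p = 0.006), and its second probe gave -0.47 and -0.40. The 8 nM change did not pass in 8 of 18 alternative settings. The gene of the polymerase itself, POLRMT, had an adjusted p of 0.025 at 8 nM, with a difference of -0.36, and of 0.0012 at 80 nM, with -0.49. MRPL58, a peptidyl-tRNA hydrolase built into the large subunit, had levels of 3.51, 3.36 and 3.41 untreated, 3.21, 3.47 and 3.30 at 8 nM, and 3.11, 3.16 and 3.21 at 80 nM. Only the 80 nM arrays lay wholly below the untreated ones, with a difference of -0.27 (adjusted p = 0.026), which did not pass in 7 of 18 alternative settings. MRPS18A, which like MRPS30 belongs to the large subunit, had levels of 1.70, 1.73 and 1.41, then 1.65, 1.67 and 1.65, and then 1.69, 1.68 and 1.74. Both treated groups overlapped the untreated arrays, and the differences were 0.04 at 8 nM (95% interval -0.17 to 0.25) and 0.09 at 80 nM (95% interval -0.12 to 0.30).

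The members were also grouped by origin and subunit. At 80 nM the 46 members conserved with bacteria had a median difference of -0.16, with 11 estimates above 0 and 35 below, 2 with an adjusted p under 0.05 and higher, and 16 lower. The 31 members specific to mitochondria had a median of -0.01, with 14 estimates above 0 and 17 below, 5 passing as higher and 7 as lower. In both directions together, 39.1% of the conserved and 38.7% of the specific members passed. The share of all genes tested was 58.9% (33.5% higher and 25.4% lower). The 2 up-regulated genes are both large subunit proteins specific to mitochondria, and the 6 down-regulated genes are spread over all 4 classes, with 1, 1, 2 and 2. The 51 large subunit members had a median of -0.07 and the 26 small subunit members one of -0.11. At 8 nM the medians were -0.12 for the conserved members and -0.04 for those specific to mitochondria. These are descriptions, and no difference between classes was tested.

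For 12 members the array held 2 probes, which were fitted here probe by probe with p-values adjusted over the 26433 probes kept. The median gap between the 2 estimates of a gene was 0.051 at 8 nM and 0.45 at 80 nM. The call differed in 0 of the 12 genes at 8 nM, in 2 at 80 nM and in 5 between 80 nM and 8 nM, and the sign differed in 2, 6 and 4. At 80 nM the dimmer probe gave the higher estimate in 10 of the 12 members (83.3%), with a median excess of 0.45, whereas among the 3280 other genes with 2 probes it did so in 53%, with a median excess of 0.04. At 8 nM the dimmer probe was higher in 4 of the 12, with a median of -0.01. The gap in level between the 2 probes was 2.87 at the median in the members and 1.77 in the other genes, and its part in this result was not tested.

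MRPL43 showed the largest gap. Its brighter probe, designed against NM_176793, had levels of 2.25, 2.12 and 2.14 in untreated cells, 2.19, 2.15 and 2.06 at 8 nM, and 2.34, 2.36 and 2.34 at 80 nM. The dimmer probe, against the transcript NM_176792, had levels of -5.27, -5.14 and -4.49, then -5.25, -5.30 and -5.28, and then -3.51, -3.72 and -3.49. On both probes the 80 nM arrays were above all others. The differences at 80 nM were 0.18 (adjusted p = 0.054) on the brighter probe and 1.39 (SE 0.185, adjusted p = 0.00032) on the dimmer one, which was called.

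Opposite signs at 80 nM that passed on both probes were found for MRPL19. Its brighter probe had levels of 3.29, 3.33 and 3.23 untreated, 3.11, 3.24 and 3.12 at 8 nM, and 3.02, 3.05 and 3.06 at 80 nM, and its dimmer probe -0.78, -0.86 and -0.93, then -0.93, -0.74 and -0.86, and then -0.63, -0.60 and -0.37. The 80 nM arrays were below the untreated ones on the first probe and above them on the second. The differences were -0.24 (adjusted p = 0.015) and 0.33 (adjusted p = 0.017).

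MRPL45 and MRPS18B also had estimates of opposite sign. For MRPL45 the brighter probe had levels of 3.89, 4.01 and 3.91 in untreated cells, 3.89, 4.17 and 3.95 at 8 nM, and 3.72, 3.75 and 3.75 at 80 nM. The dimmer one had levels of 1.13, 1.14 and 1.12, then 1.24, 1.19 and 1.31, and then 1.49, 1.56 and 1.42. Arrays at 80 nM were lowest on the first probe and highest on the second, with differences of -0.20 (adjusted p = 0.08) and 0.36 (adjusted p = 0.0021). MRPS18B had levels of 4.29, 4.21 and 4.11, then 4.09, 4.39 and 4.03, and then 3.81, 3.77 and 3.86 on its brighter probe. On its dimmer probe the levels were -0.22, -0.39 and -0.26, then -0.37, -0.72 and -1.38, and then -0.32, -0.14 and -0.20. The 80 nM arrays lay below the rest on the first probe and overlapped the untreated arrays on the second, with differences of -0.39 (adjusted p = 0.012) and 0.07 (adjusted p = 0.8).

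For MRPS16, MRPL52 and MRPS18C the brighter probe did not pass at 80 nM. MRPS16 had levels of 5.94, 6.10 and 6.09 untreated, 5.85, 6.08 and 5.76 at 8 nM, and 5.97, 5.94 and 5.91 at 80 nM on that probe, and 1.25, 1.88 and 1.65, then 1.42, 1.45 and 1.35, and then 2.17, 2.23 and 2.08 on the dimmer one. The groups overlapped on the first probe, and on the second the 80 nM arrays were highest, with differences of -0.10 (adjusted p = 0.37) and 0.57 (adjusted p = 0.0095). MRPL52 gave -0.02 (adjusted p = 0.86) and 0.41 (adjusted p = 0.033). For MRPS18C the brighter probe gave -0.07 (adjusted p = 0.49) and the dimmer one 0.79 (SE 0.471, adjusted p = 0.18), where replicate 3 at 80 nM, at -2.94, stood above the other arrays, which lay between -5.37 and -4.54. MRPL37 was higher on both probes, by 0.19 (adjusted p = 0.04) and by 0.56 (adjusted p = 0.00017). The probes of MRPL12, MRPL32 and MRPS5 differed from each other by 0.03, 0.02 and 0.01 at 80 nM.

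**Figure D4:**
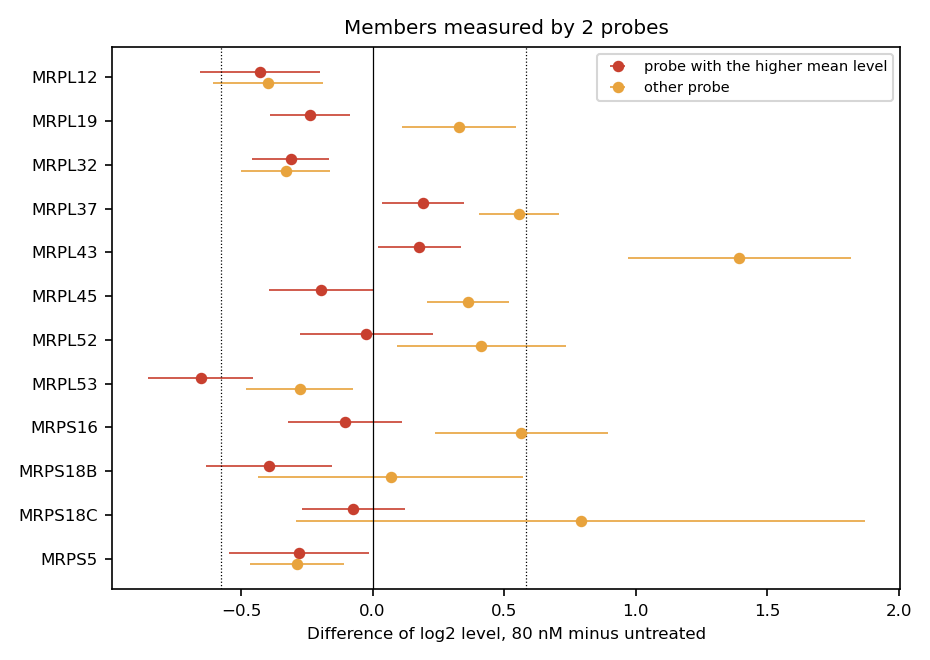
Difference of log2 level between 80 nM and untreated on each of the 2 probes of the 12 members that have 2; red marks the probe with the higher mean level, orange the other, bars are 95% intervals from limma (n = 3 arrays per group), and dotted lines mark 1.5-fold and 0.67-fold. The orange points lie to the right of the red ones in 10 of the 12 genes, farthest for MRPL43.

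Genes that act with these proteins gave more calls at 80 nM against untreated cells, though the difference from the members was not tested. In 6 lists of mitochondrial genes that are not members (5 other ribosomal proteins, translation factors, aminoacyl-tRNA synthetases, assembly factors, factors for DNA and RNA, and nuclear regulators), 78 of 79 genes were tested. By the study's rule 1 was up-regulated and 16 were down-regulated at 80 nM, which is 21.8% against 35% of all genes tested and 10.4% of the members. At 8 nM, 1 was down-regulated, which is 1.28% against 7.07% of all genes tested and 0 members. Between 80 nM and 8 nM, 1 was up- and 7 were down-regulated, which is 10.3% against 33.6% of all genes tested and 9.09% of the members. The median difference at 80 nM was -0.18. The 5 other ribosomal proteins, DAP3, PTCD3, AURKAIP1, CHCHD1 and GADD45GIP1, had 0 called at 80 nM and differences between -0.48 and -0.06, of which those of CHCHD1 (-0.48, adjusted p = 0.0025) and PTCD3 (-0.44, adjusted p = 0.019) passed in limma's test.

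Among 11 genes for replication, transcription and RNA stability in mitochondria, TFAM, which packages mitochondrial DNA and starts its transcription, fell at both concentrations. Its levels were 3.97, 3.75 and 3.82 in untreated cells, 3.25, 3.23 and 3.097 at 8 nM, and 2.65, 2.88 and 2.73 at 80 nM. The 3 groups did not overlap, and the differences were -0.66 (SE 0.091, adjusted p = 0.0032) and -1.10 (SE 0.091, adjusted p = 2.3e-05). TWNK, the mitochondrial DNA helicase, fell by 0.76 at 80 nM (adjusted p = 0.00015). Of the 23 factors for assembly of the ribosome and modification of its RNA, 6 were called at 80 nM, all lower, and the estimates of 10 of the 23 were above 0. TFB1M, a methyltransferase of the small ribosomal RNA, fell by 0.70 (adjusted p = 2.7e-05), and the GTPases GTPBP10 and MTG1 fell by 0.705 (adjusted p = 0.015) and 0.67 (adjusted p = 0.001). The signal of GTPBP10 was low, with mean levels of -3.991 in untreated cells and -4.695 at 80 nM (SE of the difference 0.198). Against 8 nM, DDX28, a helicase, was the only factor of this list called, with -0.61 (adjusted p = 0.00019).

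The release factor gene MTRFR fell by 1.10 (SE 0.121, adjusted p = 0.00012) and MTRF1L by 0.71 (adjusted p = 0.00022), the only 2 called of 13 translation factors. EARS2 and TARS2, for glutamyl- and threonyl-tRNA synthetase, fell by 0.83 (adjusted p = 0.00038) and 0.77 (adjusted p = 6.6e-05), and were the only 2 called of 17 synthetases. Against 8 nM, MTRFR differed by -0.88 (adjusted p = 0.00043), TARS2 by -0.93 (adjusted p = 2.5e-05) and EARS2 by -0.83 (adjusted p = 0.0004), and MARS2, for methionyl-tRNA synthetase, was called as well, with -0.73 (adjusted p = 0.014). The signal of MARS2 was low, with mean levels of -4.517 at 8 nM and -5.243 at 80 nM (SE of the difference 0.198).

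Among the 9 nuclear regulators tested, 5 were called at 80 nM. PPARGC1B, a coactivator of genes for mitochondrial proteins, had levels of 0.15, 0.09 and 0.20 in untreated cells, -0.33, -0.64 and -0.31 at 8 nM, and -1.39, -1.22 and -1.28 at 80 nM. The groups did not overlap, and the differences were -0.57 (adjusted p = 0.0098) and -1.44 (adjusted p = 1e-05). MYC fell by 1.11 at 80 nM (adjusted p = 5.6e-06), GABPB1 by 0.90 (adjusted p = 5e-05) and NRF1 by 0.77 (adjusted p = 0.00011). GABPA, the DNA-binding subunit of the factor whose other subunit GABPB1 encodes, was higher by 0.78 (SE 0.115, adjusted p = 0.00055). SP1 and YY1 were not called, with differences of -0.15 and -0.19. Against 8 nM, the differences of MYC, PPARGC1B and GABPA were -1.16 (adjusted p = 4.4e-06), -0.87 (adjusted p = 0.00019) and 0.76 (adjusted p = 0.00069).

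The ribosomal proteins of the cytosol, which make up the other ribosome of the cell, gave few calls as well. At 80 nM, 2 of the 87 such genes on the list that were tested were called, both upward. That is 2.3%, against 35% of all genes tested. The median difference of the 87 was 0.17, where that of the mitochondrial members was -0.09. The 2 called were RPL27A, at 0.93 (adjusted p = 0.0001), and RPL3L, a muscle paralogue of RPL3, at 0.88 (adjusted p = 0.00019). With no limit on size, 31 of the 87 (35.6%) had an adjusted p under 0.05, 30 higher and 1 lower, against 58.9% of all genes. The 80 nM arrays lay wholly above the untreated ones for 46 and wholly below for 5, where all genes tested gave 40.6% and 31.4%. At 8 nM the medians were 0.07 and -0.08, and 2 genes were called, which is 2.3% against 7.07% of all genes tested. They were RPS27L, a paralogue of RPS27 that p53 induces, at 0.99 (adjusted p = 0.0002), and RPL22L1, a paralogue of RPL22, at -1.53 (adjusted p = 0.00017). Between 80 nM and 8 nM, 4 were up- and 1 was down-regulated, which is 5.75% against 33.6% of all genes tested. In that comparison RPL22L1 was higher by 1.29 and RPS27L differed by -0.80. The difference between the families was not tested. These values use the percentile scaling. With spike-in scaling the median of all genes at 80 nM was -0.20 in place of 0.08, and the cytosolic genes were not examined in it.

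A promoter, from 250 bases before the listed start to 50 from it on, was found in the RefSeq table (GRCh38.p14) for 69 of the 77 members. The median GC content was 60.3% in the members, between 43.3% and 82.0%, compared with 64.7% in 11106 genes tested and 58.3% in all 27305 promoters. A GC box was present in 42 of the 69 members (60.9%), in 67.3% of the genes tested and in 44.6% of all promoters. The ETS motif was present in 29 members (42%), in 18.1% of the genes tested and in 2913 of all 27305 promoters, and the YY1 motif in 23 members (33.3%), 7.23% and 6.06%. The NRF1 core was present in 14 members (20.3%), 13% and 8.42%, and the E-box in 6 (8.7%), 9.91% and 7.43%.

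The changes at 80 nM are given by these features as a description. Members with a GC box had a median difference of -0.11 (1 up- and 5 down-regulated of 42), and those without one had -0.04 (1 and 1 of 27). The 34 members with a GC content above the median had -0.07, and the 35 others -0.09, with 1 up- and 3 down-regulated genes in each set. With the ETS motif the median was -0.01 (0 and 2 of 29) and without it -0.18 (2 and 4 of 40). All 6 down-regulated members lacked the YY1 motif and both up-regulated ones had it, with medians of -0.05 for the 23 with the motif and -0.10 for the 46 without. The 6 also lacked the NRF1 core, present in 14 members, and the E-box, present in 6. Of the 2 up-regulated calls, that of MRPL49 was lost with spike-in scaling. Among the genes tested that had a promoter, the medians were 0.054 with a GC box and 0.06 without one. With and without the ETS motif they were 0.04 and 0.058, and with and without the YY1 motif -0.002 and 0.061. For the ETS and YY1 motifs this order was the reverse of that in the members. Calls by motif were not counted over the genes tested. None of these splits was tested.

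Many members start close to a gene on the opposite strand, so that transcription runs in opposite directions from a shared stretch of DNA. In the RefSeq table, 26 members had such a neighbour within 1000 bases of a listed start, and for 18 neighbours that are not members the array gave a tested value. Of these 18, 4 passed the limits on fold together with an adjusted p under 0.05 at 80 nM (22.2%, against 34.3% of all genes tested), 3 of them higher and 1 lower. The largest contrast was that of MRPL40 and HIRA, which encodes a histone chaperone. MRPL40 had levels of 1.98, 1.79 and 1.81 in untreated cells, 2.02, 2.00 and 1.89 at 8 nM, and 1.79, 1.80 and 1.70 at 80 nM, while HIRA had 2.18, 2.23 and 2.28, then 1.83, 1.98 and 1.86, and then -0.67, -0.46 and -0.73. The 80 nM arrays of MRPL40 overlapped the untreated ones, and the 3 groups of HIRA did not overlap. The differences at 80 nM were -0.10 (SE 0.0774, adjusted p = 0.3) for MRPL40 and -2.85 (SE 0.0879, adjusted p = 1.1e-07) for HIRA. Their listed starts lie 812 bases apart. The 250 bases before the start of MRPL40, chr22:19432295-19432544, plus strand, 75.6% GC, are shown because they lie between both genes, and they held 2 GC boxes, 1 ETS motif and 1 NRF1 core, in capitals.
MRPL40: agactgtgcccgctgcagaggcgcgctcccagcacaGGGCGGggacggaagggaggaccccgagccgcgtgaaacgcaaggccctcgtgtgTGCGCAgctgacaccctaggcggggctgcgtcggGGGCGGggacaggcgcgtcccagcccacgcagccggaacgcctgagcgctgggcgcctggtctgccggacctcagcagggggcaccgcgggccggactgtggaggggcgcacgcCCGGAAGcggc

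HELQ, for a DNA helicase, starts 175 bases from MRPS18C and rose by 1.00 at 80 nM (SE 0.0932, adjusted p = 4.5e-05), while MRPS18C differed by -0.07 (adjusted p = 0.49). TCP1, for a chaperonin subunit, starts 210 bases from MRPL18 and rose by 0.75 (SE 0.101, adjusted p = 0.00035), in the direction of MRPL18. FAU, for a cytosolic ribosomal protein made as a fusion with a ubiquitin-like protein, starts 49 bases from MRPL49 and was higher by 0.38 (adjusted p = 0.012), also in the direction of its partner. Opposite directions, all below the fold limits, were measured for MRPL30 at -0.28 (adjusted p = 0.019) and MITD1 at 0.29 (adjusted p = 0.0091), whose starts lie 126 bases apart. They were also measured for MRPS2 at -0.49 (adjusted p = 0.00092) and PIERCE1 at 0.28 (adjusted p = 0.007), 96 bases apart. CYB5RL, beside MRPL37, was estimated higher by 1.53 (adjusted p = 0.0016), but its probe was well above background on 5 of 9 arrays only. Differences between partners were not tested. All these values use the percentile scaling. With spike-in scaling the median of all genes at 80 nM was -0.20 in place of 0.08, and the neighbours were not examined in it. The small differences of FAU, MITD1 and PIERCE1, and so their direction beside the partner, may depend on the scaling.

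**Figure D5:**
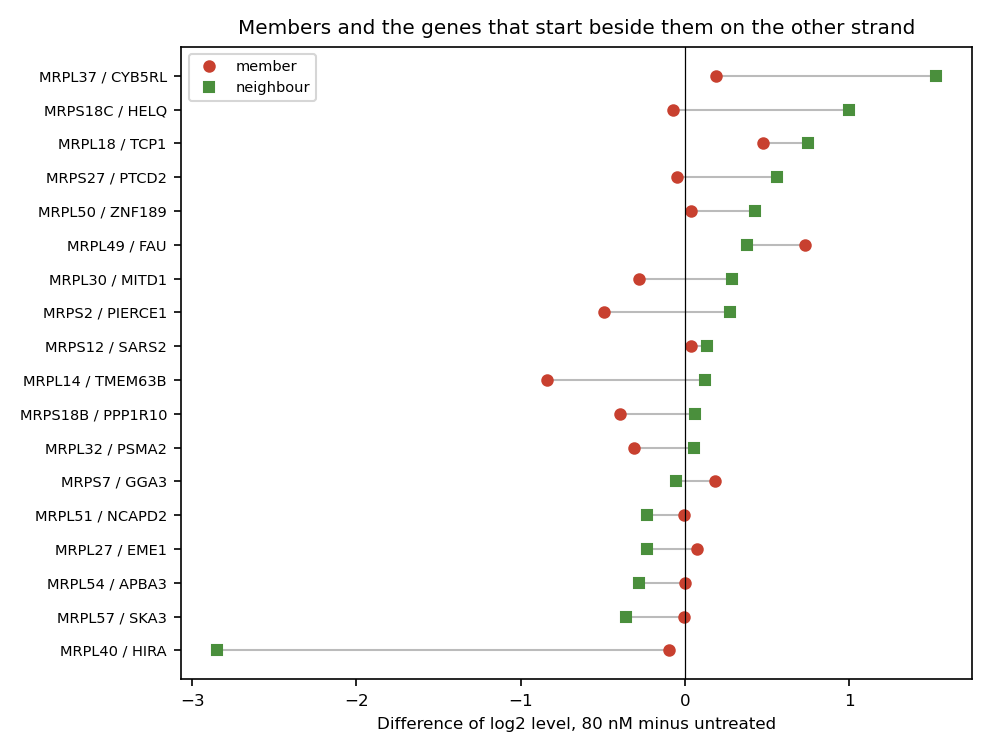
Difference of log2 level between 80 nM and untreated for 18 pairs of a member (red circles) and the gene on the other strand that starts within 1000 bases of it (green squares), ordered by the value of the neighbour. MRPL40 lies near 0 beside HIRA at -2.85, and MRPS18C beside HELQ at 1.00, while MRPL18 and TCP1, and MRPL49 and FAU, lie on the same side, and MRPL30 and MITD1, and MRPS2 and PIERCE1, on opposite sides.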

How the data were processed

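Levels of 77 mitochondrial ribosomal protein genes were taken from 9 single-colour arrays, 3 each for untreated, 8 nM and 80 nM, grouped by the labels. The authors scanned the arrays and subtracted background with Agilent Feature Extraction 10.7.3.1, and the deposited processed intensity was used. The authors also deposited log2 values per probe, which served only as an alternative. The study names lowess normalization, which was not applied here. Intensities were averaged over the spots of a probe without outlier flags, and the log2 of this mean was taken, less the log2 of the array's 75th percentile. A probe entered if the scanner software set it well above background throughout 1 group or more, and the brightest probe stood for a gene. Groups were compared with limma 3.58.1 in R 4.3.3 over all 9 arrays, with Benjamini-Hochberg adjustment over 21813 genes. This fit gives the adjusted p and 95% intervals, except those given probe by probe and those of alternative settings. The former come from a fit adjusted over the 26433 probes kept, the latter from the fit of each setting. The script was tested on simulated data. Symbols came from RefSeq by accession (23822 of 24440 NM_ probes). Promoters were read in Python 3.11.15 with 1 listed start per gene, and neighbours were sought over all listed starts, with the distance of the nearest pair. A leukocyte marker of the list is not reported here.

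The members and lists were chosen with earlier results of these data known. Members were named if called by the study's fold limits with an unadjusted p under 0.05, well above background and without overlap (up to 6 in each direction per comparison), if their probes disagreed in call or sign, or for their role (MRPL12, MRPL58, MRPS30, MRPS18A); other genes were named if among the 3 largest called of a list. The other members named at 8 nM, MRPL18, MRPL42, MRPS23, MRPL28, MRPS2, MRPL40, MRPL32, MRPS5, the genes named without a call, and the neighbours with their distance limit were named after their values were seen. Alternatives were normexp background correction (offset 50), quantile normalization, spike-in scaling, the authors' log2 values, no filter, a filter requiring all 9 arrays, averaging a gene's probes, the replicate number as a block, only the groups compared, and each array left out.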

Additional observations from a re-analysis of the deposited data

How the results depend on the processing

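Counts and medians over the members were recomputed under 18 alternatives, and calls also with the adjusted p. Of these values, 197 stayed close to those reported and 25 moved. A count was close within a set ratio, and a median within the SD of the array medians. At 8 nM against untreated this SD was 0.11, larger in size than the members' median of -0.077. The median of 0 with spike-in scaling thus counted as close, so closeness cannot show that the 8 nM median held. The 8 nM counts of 0 called, which stayed at 0, are also among the 197. With spike-in scaling, 0 members in place of 8 had an adjusted p under 0.05 at 8 nM; at 80 nM against untreated, 1 was up- and 17 were down-regulated with a median of -0.37, and against 8 nM 1 and 19 with a median of -0.376 and 18 with an adjusted p under 0.05, while 34.8% of all genes were called against 8 nM, with a median of -0.241 over all genes, and 77.1% of those called were lower (3057 of 7335 with the percentile). The count of 8 at 8 nM was 2 without a filter, 1 with only both groups compared and 4 with the replicate block. It ran from 2 to 21 when each array was left out: 21 without 8 nM replicate 2, 2 without any untreated array or 8 nM replicate 3, and 4 otherwise. The median of 80 nM against 8 nM was -0.065 with quantile normalization and -0.085 with the authors' log2 values, and it ran from -0.07 (without 8 nM replicate 3) to 0.066 (without 8 nM replicate 2) with an array left out, where the down-regulated members numbered 3 (without 8 nM replicate 2) to 6.

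Of the values for single members, 996 stayed on their side of the threshold, 61 no longer passed, 18 newly passed and 5 reversed. A change of sign was counted as reversed only if either estimate passed, so the 996 include changes of sign where neither did. MRPL52 at 80 nM against untreated, for instance, ran from -0.308 to 0.194 and passed in no setting. With the mean of both probes, MRPL19 was 0.045 at 80 nM against untreated and MRPS18B 0.122 against 8 nM. With spike-in scaling, MRPL37 was -0.091 against untreated and -0.113 against 8 nM, and MRPL43 was -0.149 against 8 nM. Among calls of 80 nM against 8 nM, MRPL14 was lost with normexp and without 8 nM replicate 2, MRPS17 without 8 nM replicate 2, MRPS25 without 8 nM replicate 1, MRPL2 with spike-in scaling and MRPL53 with the mean of both probes. The cause was not tested in these cases. Same-numbered arrays of 8 nM and untreated cells deviated together with correlations of 0.0994 to 0.158, each best with its own number, and those of 80 nM and untreated cells with -0.0782 to -0.00273, so that the numbers were not taken to pair the arrays. The number of arrays and, for dim probes, the signal over background limit the precision.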
